A study of Mus musculus with 1 sample.

Results

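The Toll-like receptors (TLRs), inflammasome sensors and cytosolic nucleic acid sensors, with their direct adaptors and kinases, were described in ventral midbrain (VM)-derived mixed glia. The 46 genes were chosen by their function, with earlier results of these data known. They were found by gene symbol, with Sting1 and Cgas read from the rows of their older symbols Tmem173 and Mb21d1. All 46 had a row among the 23282 rows of the table. The study asked how inhibition of the kinase SGK1 changes inflammatory pathways of glia, including the NLRP3-inflammasome and the CGAS-STING pathway.

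One RNA-seq library was analysed here, labelled as control. It came from a primary culture of glia from the brain of ICR(CD-1) outbred mice at postnatal day 5. The control received the vehicle DMSO, and how many pups entered the culture was not given in the sources used here. No inhibitor-treated library was used here, so the values below give the sensing machinery of control glia and no response to the inhibitor. With 1 library no value has an error between cultures and no test was made, so neighbours in any order below are not shown to differ.

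TLRs recognise microbial lipids, proteins and nucleic acids outside the cell or inside endosomes, and pass the signal through adaptors with a Toll/interleukin-1 receptor (TIR) domain to IRAK kinases, TRAF6 and NFκB. Inflammasome sensors such as NLRP3 assemble with the adaptor ASC (Pycard) and caspase-1, which matures IL1B and IL18. RIG-I-like receptors and CGAS detect RNA and DNA in the cytosol and act through MAVS and STING on the kinases TBK1 and IKKε, which activate the transcription factors IRF3 and IRF7. In the brain, microglia are known for the broadest set of these receptors, and astrocytes for a narrower one.

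The unit was the authors' normalised read count, which summed to 27569507 over all rows. The cell types in the culture were described with marker lists. The paper describes such cultures as mostly GFAP+ astrocytes, with a smaller share of Iba1+ microglia. List medians were 10560 for microglia, 5816.5 for mesenchymal and 3801 for astrocyte markers, without adjustment for gene length. Per kilobase of annotated exons the mesenchymal median was 612 and the astrocyte median 684, so the order of these lists depended on gene length. All 7 microglia markers (984 for Tmem119 to 32619 for C1qa) and all 8 astrocyte markers (604 for S100b to 17222 for Gfap) lay above the median of detected rows, as did 5 of 6 mesenchymal markers (455 for Lum to 26499 for Acta2). Of the 5 oligodendrocyte lineage markers (48 for Sox10 to 10966 for Mbp), only 1, Mbp, lay above that median. Of the 4 ependymal markers (14 for Tmem212 to 3173 for Cfap126), 3 did. Neuronal, endothelial and B cell markers reached at most 124 (Tubb3), 119 (Kdr) and 16 (Ms4a1), with Slc17a6, Tek and Pax5 listed at 0. T cell markers ran from 1 for Cd8a to 202 for Cd3d, and neutrophil markers from 0 for Elane to 129 for S100a8. Of the 5 plasmacytoid dendritic markers (0 for Klk1 to 2115 for Tcf4), 2 lay above the median of detected rows. Tcf4 is a gene that many cell types express. In such a mixed culture, fewer cells of a type and less RNA per cell cannot be told apart, and the table does not show which cells a transcript came from.

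Detection was set at a normalised read count of at least 10. It was reached by 43 of the 46 genes and by 67.2% of all rows. The 3 under that minimum were Tlr5, listed at 0, and Tlr11 and Tlr12, each at 3. The median over the 46 genes was 436, and the median of the 15648 detected rows was 469. Above this median lay 23 of the 46 genes, against 33.6% of all rows. These shares of all rows, 67.2% and 33.6%, are the background for the count of each role group below. By quartiles of the detected rows, 7 of the genes fell in the highest, 16 in the next, 16 in the one below that and 4 in the lowest. The sensing genes sat mostly in the middle of the range, with 9 genes over 1000 and 4 between 10 and 99.

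**Figure D1:**
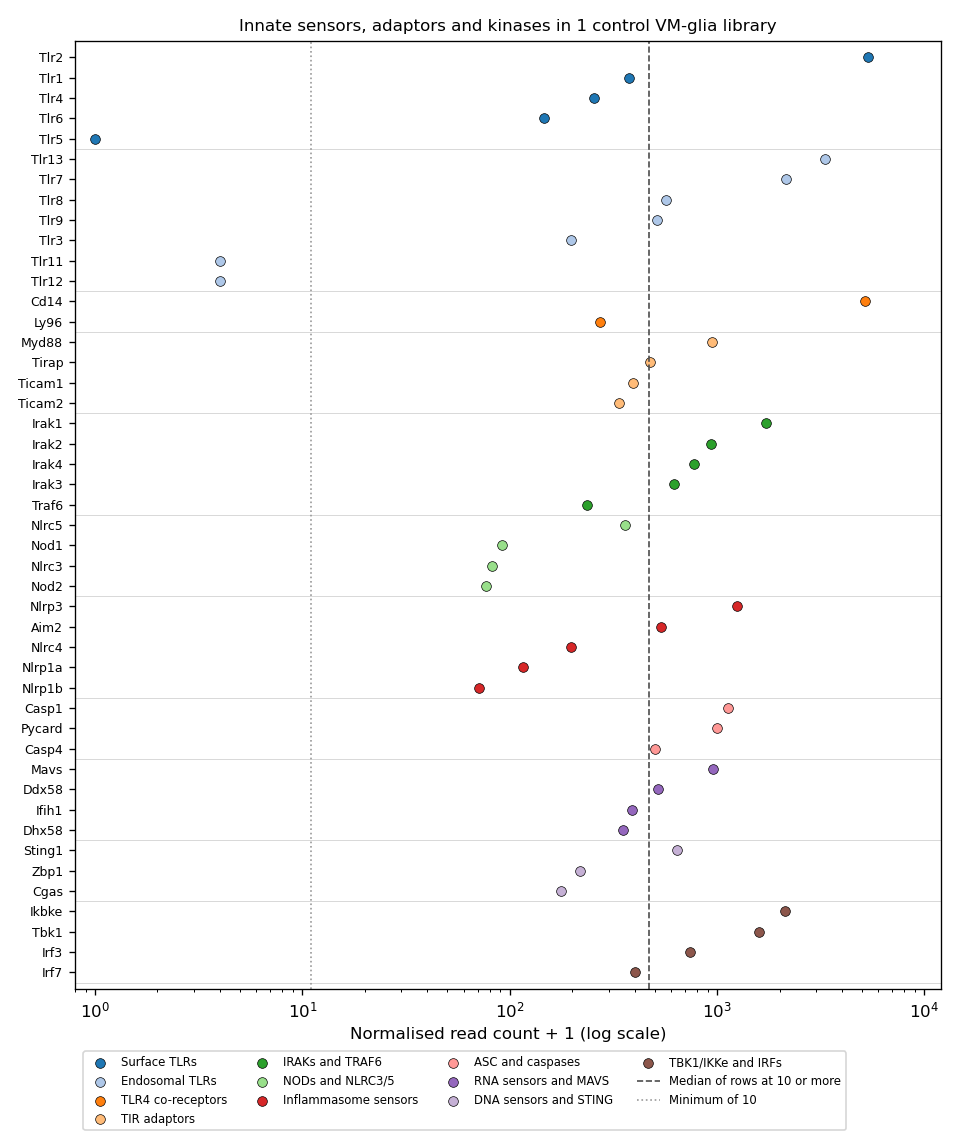
Normalised read count + 1 (x axis, log scale) of each of the 46 genes in the 1 control library, grouped by role. The dashed line marks the median of detected rows, 469, and the dotted line the minimum of 10. Tlr2 and Cd14 stand at the right end, and Tlr5, Tlr11 and Tlr12 lie left of the minimum.

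**Figure D2:**
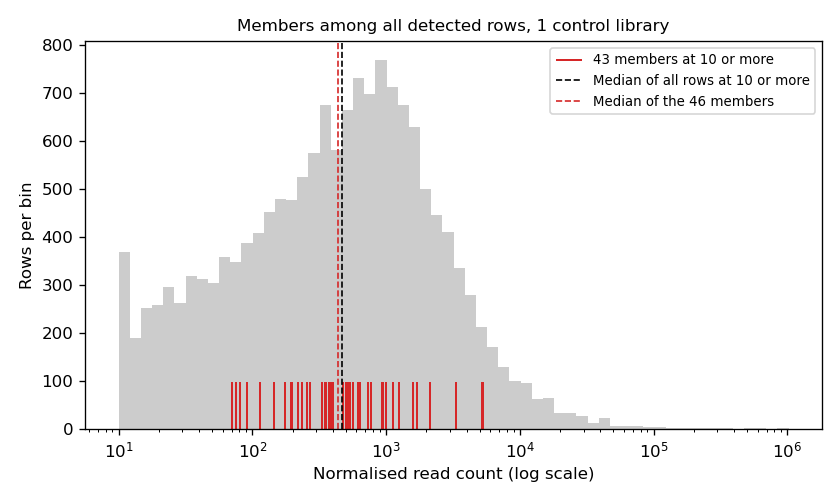
Number of rows per bin (y axis) by normalised read count (x axis, log scale) for the 15648 rows at 10 or more, with red ticks for the 43 detected sensing genes. The median of the 46 genes (436, red dashed) lies close to that of all detected rows (469, black dashed).

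Few genes carried most of the signal. The 4 highest, Tlr2, Cd14, Tlr13 and Tlr7, held 41.8% of the summed value of the 46 genes, and the 10 highest held 64.8%. The whole group held 0.139% of the sum of all values. To compare genes with each other, each value was divided by the length of the annotated exons in kilobases (kb). On this scale the 46 genes had a median of 121 per kb against 102 per kb for detected rows, and 26 of the 46 lay above the latter, against 33.8% of the rows with a length. With the longest transcript paired with RefSeq as the length, 22 of the 46 lay above the median.

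The surface TLRs were uneven. TLR2 recognises bacterial lipopeptides and pairs with TLR1 or TLR6. Tlr2 (chromosome 3, 83836272 to 83841767 in GRCm38, minus strand) had the highest value of all 46 genes, 5333, above 94.6% of detected rows. Its partner Tlr1 was at 373 and its partner Tlr6 at 146. Per kb of exon, Tlr2 was 15.9 times Tlr1 and 45.2 times Tlr6, so the shared subunit was far more abundant in RNA than either partner. Tlr4, the lipopolysaccharide receptor (chromosome 4, 66827584 to 66930284, plus strand), was at 255, above 37.8% of detected rows. Per kb of exon Tlr2 was 38.6 times Tlr4, and 28.3 times with the RefSeq-paired length. Tlr5, the receptor for flagellin, was listed at 0.

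Tlr1 and Tlr6 lie next to each other on chromosome 5 and are close copies, so their values are uncertain where reads could be placed on either. Of the 50-base windows of Tlr1 transcripts, 15.4% also occurred in another gene, and for Tlr6 the share was 12.3%. The longest identical run between transcripts of the pair was 229 bases. Its opening 60 bases, positions 1939 to 1998 of the Tlr1 transcript in GENCODE M21, are shown because a read inside this run cannot be assigned to one gene by sequence.
Tlr1 and Tlr6 shared run: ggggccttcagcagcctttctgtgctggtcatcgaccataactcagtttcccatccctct

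The TLR4 co-receptors differed from the receptor. CD14 hands lipopolysaccharide to the complex of TLR4 and MD-2, which Ly96 encodes. Cd14 (chromosome 18, 36725067 to 36726798, minus strand) was at 5185, above 94.4% of detected rows, and it had the highest level per kb of the 46 genes, 2994. Ly96 was at 271, above 38.7% of detected rows, but its exons are short and it had 265 per kb. Cd14 per kb was 65.2 times Tlr4 and 11.3 times Ly96, and these ratios were 50.5 and 7.37 with the RefSeq-paired length. In RNA per kb, Cd14 was thus well above both Tlr4 and Ly96.

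Among the endosomal TLRs, 5 of 7 were detected, a share close to the 67.2% of all rows. Tlr13, a mouse receptor for bacterial ribosomal RNA, was at 3324. Tlr7, a receptor for single-stranded RNA, was at 2138, and its neighbour on chromosome X, Tlr8, was at 565. Tlr13 and Tlr7 were the most abundant of the group in normalised read count and also per kb, at 772 and 524. Tlr8 had 158 per kb. Tlr9, which recognises unmethylated CpG DNA, was close to Tlr8 at 512, or 147 per kb. Tlr3, the receptor for double-stranded RNA, was at 197, and Tlr7 per kb was 13.8 times Tlr3. Exons of Tlr3 overlap Gm45542 on the opposite strand. Tlr11 and Tlr12, mouse receptors for a protozoan profilin, had the value of 3 each. None of Tlr7, Tlr8, Tlr9 and Tlr13 shared a 50-base window with another gene.

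All 4 TIR adaptors were detected, at moderate levels. Myd88, the adaptor of most TLRs, was highest at 946 and at 367 per kb. Tirap, which brings MYD88 to TLR2 and TLR4, was at 473. Ticam1 (TRIF), the adaptor of TLR3 and TLR4, was at 392, and Ticam2 (TRAM), which links TRIF to TLR4, was at 334. Per kb, Myd88 was 2.80 times Ticam1 and 3.83 times Tirap. Exons of Myd88 and Tirap overlap genes on the opposite strand. Ticam2 shares exons with Tmed7 on the same strand, and 14.8% of its windows occurred in another gene.

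All 5 signal transducers below the adaptors were detected, and 4 of them lay above the median of detected rows. Irak1, a kinase of the receptor complex, was at 1713, above 80.3% of detected rows. Irak2, a related kinase that sustains the signal, was at 936. Irak4, the kinase that acts at the top of the cascade, was at 775, and Irak3 (IRAK-M), an inhibitor of the cascade, was at 620. Per kb, Irak1 was 2.35 times Irak4 and 2.15 times Irak3. Traf6, the ubiquitin ligase below the IRAKs, was lowest at 234 and at 29.7 per kb. Irak2, Irak3 and Irak4 have exon overlaps with opposite-strand genes, and Irak1 with Mir5132 and Mir718 on the same strand.

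NOD-type sensors were low. Nod1 and Nod2, cytosolic receptors for fragments of bacterial peptidoglycan, were at 91 and 76. Nlrc3, a negative regulator of STING and TLR signals, was at 81. Nlrc5, a transactivator of MHC class I genes, was the highest of these at 357, and its exons overlap 9330175E14Rik on the opposite strand. None of the 4 exceeded the median of detected rows, and their median of 16.5 per kb was the lowest among the 11 role groups under each of the 3 lengths used.

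**Figure D3:**
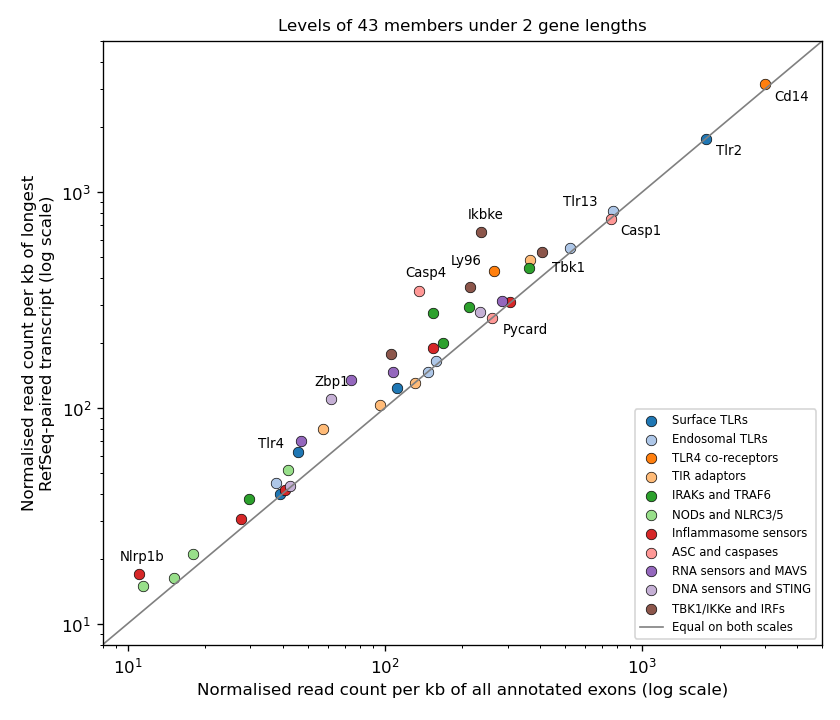
Normalised read count per kb of all annotated exons (x axis) against that per kb of the longest transcript paired with RefSeq (y axis), both on log scales, for the 43 detected genes of the 1 control library. The line marks equal values. Ikbke and Casp4 lie furthest above it, at 653 against 236 and 349 against 135 per kb.

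Among inflammasome sensors, Nlrp3 stood highest. NLRP3 responds to potassium efflux and membrane damage. Nlrp3 (chromosome 11, 59541568 to 59566956, plus strand) was at 1247, or 307 per kb of exon, above 74.3% of detected rows on that scale. Aim2, the sensor of cytosolic DNA, was at 538 in normalised read count and 154 per kb. Nlrc4, which responds to bacterial flagellin and secretion systems through NAIP proteins, was at 196. Per kb, Nlrp3 was 2.00 times Aim2 and 7.54 times Nlrc4. Nlrp1a was at 115 and Nlrp1b at 70. These are mouse forms of NLRP1 in a tandem cluster on chromosome 11, and they share 2.07% and 1.45% of their windows with other genes, mainly each other and Nlrp1c-ps.

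The parts that NLRP3 works with were also above the median of detected rows. Casp1 (chromosome 9, 5298517 to 5307265, plus strand) was at 1128, or 754 per kb, and was 2.45 times Nlrp3 on that scale. Pycard, the ASC adaptor, was at 994, or 262 per kb. The annotated transcript behind this length has 3800 bases, whereas the RefSeq locus spans 2495, which would give at least 398 per kb. Exons of Pycard also overlap Gm45205 on the opposite strand, and 11.7% of its 50-base windows occurred in another gene. Casp4, the mouse caspase-11 that senses lipopolysaccharide in the cytosol, lies beside Casp1 and was at 501. Casp1 was 5.58 times Casp4 per kb of all exons but 2.16 times with the RefSeq-paired length. The annotated exons of Casp4 cover 3710 bases, and its RefSeq-paired transcript 1435.

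The RNA-sensing branch was detected in full. Ddx58 (RIG-I), a sensor of RNA with a 5′ triphosphate, was at 519. Ifih1 (MDA5), a sensor of long double-stranded RNA, was at 386, and Dhx58 (LGP2), which modulates both, was at 352. Mavs, the mitochondrial adaptor of RIG-I and MDA5, was highest at 952. Per kb, Mavs was 3.87 times Ddx58 and 6.02 times Ifih1, and with the RefSeq-paired length 2.32 and 4.41 times. Exons of Dhx58 overlap Dhx58os on the opposite strand.

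In the DNA-sensing branch the adaptor exceeded its sensor as well. Cgas, which makes the second messenger cGAMP, was at 176, or 42.7 per kb, above 31.6% of detected rows on that scale. Sting1 (chromosome 18, 35733679 to 35740554, minus strand), the receptor of cGAMP, was at 639, or 233 per kb. Sting1 was thus 5.47 times Cgas, and 6.39 times with the RefSeq-paired length. Zbp1, a sensor of left-handed nucleic acid that also engages necroptosis, was at 218, or 61.8 per kb. Exons of Cgas overlap Gm8093 on the opposite strand.

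Of the 4 kinases and transcription factors on which both branches converge, 3 lay above the median of detected rows in normalised read count and all 4 did per kb of exon. With the longest transcript as the length, Irf7 was at 0.892 times the median of detected rows and 3 of the 4 lay above it. Tbk1 had 407 per kb, above 79.2% of detected rows on that scale. Ikbke (IKKε), its relative, had the larger normalised read count, 2124 against 1591. The order of the 2 kinases per kb depended on the length. Tbk1 was 1.73 times Ikbke with all annotated exons, and 0.805 times with the RefSeq-paired length. Irf3, the constitutive target of the kinases, was at 736 with 214 per kb, and Irf7, its interferon-inducible relative, was at 399 with 106 per kb. Irf3 was 2.02 times Irf7 per kb. Exons of Ikbke, Irf3 and Irf7 overlap opposite-strand genes.

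Set side by side per kb of exon, the role groups ran from 1630 for the TLR4 co-receptors to 16.5 for the NOD group. The 1630 is the midpoint of only 2 genes, Cd14 at 2994 and Ly96 at 265. ASC with the caspases had a median of 262, the TBK1 group with the IRFs 225, the IRAKs with TRAF6 169, the endosomal TLRs 147 and the TIR adaptors 113. Lower medians were found for the RNA sensors with MAVS at 90.6, the DNA sensors with STING at 61.8, the surface TLRs at 45.9 and the inflammasome sensors at 40.8. The order of neighbouring groups depended on the length. With the longest and with the RefSeq-paired transcript, the RNA sensors (140 on both) stood above the TIR adaptors (117 on both). The TBK1 group (363 and 444) then stood above ASC with the caspases (264 and 349). The Pycard length in these medians exceeds its RefSeq locus, which would give Pycard at least 398 per kb. At that level ASC with the caspases would stand above the TBK1 group with the longest transcript, so this order is uncertain. The groups hold 2 to 7 genes each and overlap widely. The surface TLRs alone spanned from 0 to 1769 per kb.

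Promoter windows from RefSeq (GRCm38.p6, 250 bases before to 50 after a start) were matched for 37 of the 46 genes, in 46 windows. Entries for Tlr4, Tlr7, Cd14, Ly96, Ticam2, Nlrc5, Dhx58, Sting1 and Zbp1 were missing. Each window was searched on both strands for the NFκB consensus, for the interferon-stimulated response element (ISRE) core, which is GAAA and after any 2 bases GAAA again, for the core GAGGAAGT bound by the myeloid factor PU.1, and for TATAAA. The NFκB consensus occurred in 5 of the 46 windows (10.9%) and in 4.51% of all 32851 windows. The ISRE core occurred in 10.9% against 3.44%, GAGGAAGT in 7 windows (15.2%) against 3.20%, and TATAAA in 10.9% against 13.6%. Of the 37 genes, 9 had 2 windows, and both windows of Casp4 held the same match.

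Genes with a match varied widely in level. The 4 genes with an NFκB match were Tlr2, Nlrp3, Casp4 and Tlr3, which ran from 197 to 5333. The 7 genes with GAGGAAGT, among them Pycard, Tlr9 and Aim2, ran from 3 to 994, and the lowest was Tlr11. The 5 genes with the ISRE core were Ifih1, Ddx58, Myd88, Tlr6 and Tlr11, which ran from 3 to 946. A match is a run of letters and not a shown binding site. The stretches of 100 bases below, in the direction of the gene with the match in capitals, show NFκB matches of Tlr2 (chr3:83841727-83841826, minus strand), Nlrp3 (chr11:59541338-59541437, plus strand) and Casp4 (chr9:5308711-5308810, plus strand), and the ISRE core of Myd88 (chr9:119340019-119340118, minus strand).
Tlr2: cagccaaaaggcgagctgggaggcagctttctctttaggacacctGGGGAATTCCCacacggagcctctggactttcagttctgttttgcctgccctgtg
Nlrp3: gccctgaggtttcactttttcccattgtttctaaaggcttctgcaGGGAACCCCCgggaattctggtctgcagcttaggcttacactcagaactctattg
Casp4: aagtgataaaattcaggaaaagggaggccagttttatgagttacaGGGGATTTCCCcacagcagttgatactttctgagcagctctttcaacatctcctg
Myd88: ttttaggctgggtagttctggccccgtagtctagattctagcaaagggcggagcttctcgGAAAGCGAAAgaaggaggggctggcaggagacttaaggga

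The Tlr2 and Casp4 runs each hold overlapping matches, and Tlr2 had a further NFκB match, not printed, that begins at position -8 relative to its start. The Nlrp3 match reads on the opposite strand. The tandem copies Nlrp1a (chr11:71144734-71144833) and Nlrp1b (chr11:71230776-71230875), both on the minus strand, carried GAGGAAGT within nearly the same surroundings, as the next lines show. Pycard (chr7:127993868-127993967, minus strand) carried it on the opposite strand, and Irf7 (chr7:141266425-141266524, minus strand) carried TATAAA from position -29 relative to its start.
Nlrp1a: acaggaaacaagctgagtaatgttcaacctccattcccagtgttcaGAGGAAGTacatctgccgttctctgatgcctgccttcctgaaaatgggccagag
Nlrp1b: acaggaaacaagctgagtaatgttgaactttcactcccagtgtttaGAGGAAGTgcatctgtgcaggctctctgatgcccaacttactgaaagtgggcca
Pycard: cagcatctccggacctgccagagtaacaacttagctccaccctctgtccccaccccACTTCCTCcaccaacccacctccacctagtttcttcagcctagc
Irf7: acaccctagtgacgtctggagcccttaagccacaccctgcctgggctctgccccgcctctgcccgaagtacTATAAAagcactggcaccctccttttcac

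A further 78 genes of these pathways were described from 6 lists: 72 were detected and 51 lay above the median of detected rows. Of all rows, 67.2% were detected and 33.6% lay above that median, which is the background for the count of each list. The highest list was that of TLR folding, transport and cleavage and of accessory ligand-binding proteins, with all 10 genes above that median. Ctss, a lysosomal protease that cleaves endosomal TLRs, had 53953 per kb, Lgmn 17680 and the TLR chaperone Hsp90b1 10043. These proteins also serve many other substrates. Unc93b1, which carries nucleic acid-sensing TLRs to endosomes, was at 12373 in normalised read count and per kb was 7.79 times Tlr7. The scavenger receptor Cd36, at 627, was the lowest of the list.

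Of the downstream genes, 9 of 10 were above the median of detected rows. The transcription factors Irf8 and Irf5 were at 4222 and 3753, Tab2, a scaffold of the TAK1 kinase, was at 3338, and Tab3 was lowest at 211. Of the negative regulators, 6 of 9 were above it. Tnip1, which acts with the deubiquitinase A20, was at 6841, A20 itself (Tnfaip3) at 1602 and Tollip at 1536. Sigirr, an inhibitory member of the receptor family, was lowest at 14.

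Partners of NOD and inflammasome sensors were mixed, with 13 of 15 detected and 7 above the median of detected rows. Txnip, an NLRP3-binding protein, was at 4235, Casp8 at 2238 and Nek7, an NLRP3 cofactor, at 1684. Nlrp12 was at 1. Partners of nucleic acid sensing were all detected, 22 of 22, with 15 above that median. Samhd1, which degrades deoxynucleotides, was at 4046, the endolysosomal transporter Slc15a3 at 2772 and the TBK1 adaptor Tank at 2248, and Ifi205 was lowest at 93.

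The products of these pathways varied widely. Of 12 output genes, 8 were detected and 4 lay above the median of detected rows, shares close to those of all rows (67.2% and 33.6%). Their median was 103 per kb, against 102 for detected rows. The feedback inhibitor Nfkbia was at 1455, Tnf at 810 and Ptgs2 at 727. Il6 was at 34, and Nos2 at 7 and Il12b at 5 were under the minimum of 10. Among interferons, Ifnb1 was at 6 and Ifna4 was listed at 0. Il1b had 261 per kb, which was 0.346 times Casp1, the protease that matures its product.

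**Figure D4:**
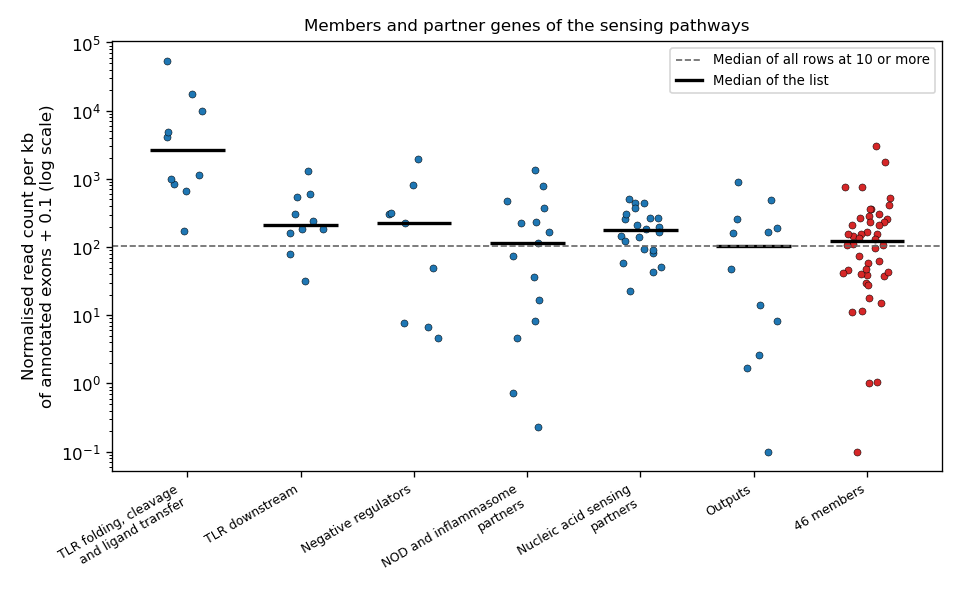
Normalised read count per kb of annotated exons + 0.1 (y axis, log scale) for the 6 lists of partner genes (blue) and the 46 sensing genes (red) in the 1 control library. Bars are list medians and the dashed line is the median of detected rows, 102 per kb. The list of TLR folding, cleavage and ligand transfer lies highest, with a median of 2609 per kb.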

How the data were processed

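Per the study's methods, the authors trimmed bases with quality under 20, mapped reads to GRCm38/mm10 with STAR and used HTSeq-count on the exons of genes in NCBI RefSeq Release 105. The submitters' processing notes name TopHat and edgeR with mm10 instead, and this was not resolved. The deposited values were whole-number normalised read counts of unstated normalisation, so they were treated as a score and not as raw counts. The strand setting and the treatment of multi-mapped reads were not given in the sources used here. The number of sequenced reads is unknown, so no interval or detection floor is given.

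The 46 genes and the lists of partner genes and cell markers were chosen with earlier results of these data known. Every one of the 46 genes is named, and from each partner list the 3 highest, the lowest and genes at 0. The partners Unc93b1, Ifnb1, Il1b, Il6, Nos2 and Il12b were named after their values were seen. From each of the 11 marker lists the highest, the lowest and genes at 0 were named, and some marker genes are not reported here. Levels per kb used the union of annotated exons in GENCODE M21 (22922 rows matched, 98.5%), with the longest transcript and the longest RefSeq-paired transcript as alternatives. Genes between which reads can be shared were found from exon overlaps and from 50-base windows shared between transcripts. The functions were tested on simulated data. Python 3.11.15, numpy 2.4.6, pandas 2.3.3 and matplotlib 3.10.9 were used.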

Additional observations from a re-analysis of the deposited data

How the results depend on the processing

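Values were called moved when they changed by more than 1.5 times, since no spread between replicates exists. Among the counts, medians and orders over the 46 genes, 32 of 39 alternative values stayed within that range. With detected rows at 100 or more as the reference, 13 genes lay above the median of detected rows in place of 23, since that reference has a higher median. With the longest transcript as the length, the median per kb of the RNA sensors was 140 and that of the TBK1 group 363. With the RefSeq-paired length, added after the data were seen, these were 140 and 444, the IRAK group was at 274 and the DNA sensors at 110. These medians differed only in the length used, since the normalised read counts were the same. The ratio of Tbk1 to Ikbke reversed, to 0.805 with the RefSeq-paired length. The number of detected genes was 45 at a minimum of 1 or 3 and 39 at 100. Of the 10 highest genes per kb, 8 remained with each other length and 8 without a length. Values per 1000000 rose 1.02 times without Rn45s and 1.16 times without the 10 highest rows. No paired analysis was possible because 1 library was analysed. With 1 library, the spread between cultures is unknown for every value.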
